A study of Homo sapiens with 6 samples.

Results

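The respiratory chain and ATP synthase members studied here are the nuclear genes whose products build the energy-converting complexes of the mitochondrial inner membrane. They were chosen by name from the probe table: names starting with NDUFA, NDUFB, NDUFC, NDUFS, NDUFV, UQCR, ATP5, COX4, COX5, COX6, COX7 or COX8, and SDHA, SDHB, SDHC, SDHD, CYC1 and CYCS. This gave 99 of 48701 probes, under 87 names. Of these, 82 names belong to structural subunits, cytochrome c or factors long listed with them. The other 5 match by spelling: NDUFAF1 and NDUFA12L (now NDUFAF2), which assemble complex I, COX7A2L, a supercomplex factor, COX4NB (now EMC8), a subunit of a complex of the endoplasmic reticulum, and COX6BP1, a pseudogene by its name. ATP5S, now named DMAC2L, was kept with the ATP synthase.

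The samples were HEK293 cells, an established line from human embryonic kidney, transfected by lipid reagent (Lipofectamine with Plus Reagent) and lysed 48 hours later. Both groups received a plasmid and made a fluorescent protein: 3 arrays were labelled as carrying pEGFPN3, which codes for green fluorescent protein alone (GFP 1 to 3), and 3 as carrying human SNRK-pEGFPN3, which codes for SNRK joined to it (SNRK 1 to 3). SNRK is a protein kinase of the family of AMP-activated protein kinase, a sensor of cellular energy. The labels do not say whether replicates were separate cultures, so the p-values cover only the variation among these 6 arrays, some or all of which may be technical. RNA came from all cells of a culture, and the share of them transfected is not given in the sources used here, so a change in a few cells cannot be told apart from a smaller change in all.

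In the respiratory chain, complex I takes electrons from NADH and complex II takes them from succinate, and both pass them to ubiquinone. Complex III hands them to cytochrome c, and complex IV, cytochrome c oxidase, to oxygen. Complexes I, III and IV pump protons, and complex V, the ATP synthase, makes ATP as protons flow back. All subunits of complex II and most of the other complexes come from nuclear genes, many of whose promoters are known to bind the factors NRF1 and GABP, the latter of the ETS family. The complexes also hold subunits coded by mitochondrial DNA, which the name rule does not cover.

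The median intensity was between 93.8 and 102 on the 6 arrays, and 15133 to 16190 probes were detected at a detection p under 0.01. A probe was kept if it was detected on all 3 arrays of at least 1 group. Of all probes 14964 were kept, and 87 of the 99 member probes, under 77 names. All 87 were detected on all 6 arrays, so none passed through 1 group alone. The members were bright, with a median level of 11.68 on the log2 scale against 7.80 for all kept probes. The probe of SNRK gave intensities of 350, 382 and 372 in GFP replicates 1 to 3, against 485, 460 and 458 in the SNRK replicates (limma adjusted p = 0.0219). Whether it lies in the stretch the plasmid codes for is not known here. Of 8 genes listed for HEK293, 7 were detected on every array, among them NEFL, NEFM and VIM. Of the listed markers of other tissues, 0 of 3 for lymphocytes, 0 of 2 for red cells and 0 of 5 for muscle were kept, and 1 of 3 each for endothelium (PECAM1) and liver (ALB). None of these markers was called.

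Of the 87 kept member probes, 5 rose and 1 fell in SNRK cells, where rose and fell mean an adjusted p under 0.05 in limma over all kept probes. NDUFV1, NDUFA13 and NDUFC1 of complex I rose, as did UQCRC1 and UQCRH of complex III. NDUFS8 of complex I fell. The changes lay between 1.28-fold and 1.47-fold. The 6 calls are 6.90% of the kept member probes, against 12.9% of all 14964 kept probes, 6.88% higher and 6.05% lower. The 2494 kept probes at or above the lower quartile of the member levels (10.15 on the log2 scale) are termed the bright probes. Of these, 7.7% were called, close to the members' share. They include the brighter members, while the dimmer members, with levels down to 5.78, have no match among them. The median difference over the members was 0.02 on the log2 scale (SNRK minus GFP), against 0.004 over all kept probes, and 48 of 87 differences were above 0. The median size of a difference, whatever its sign, was 0.07 for members, 0.12 for the bright probes and 0.16 for all kept probes. The value for all kept probes moved with the background model, to 0.106 without background correction and 0.0743 on the processed values of the authors, where that of the members was 0.0709.

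**Figure D1:**
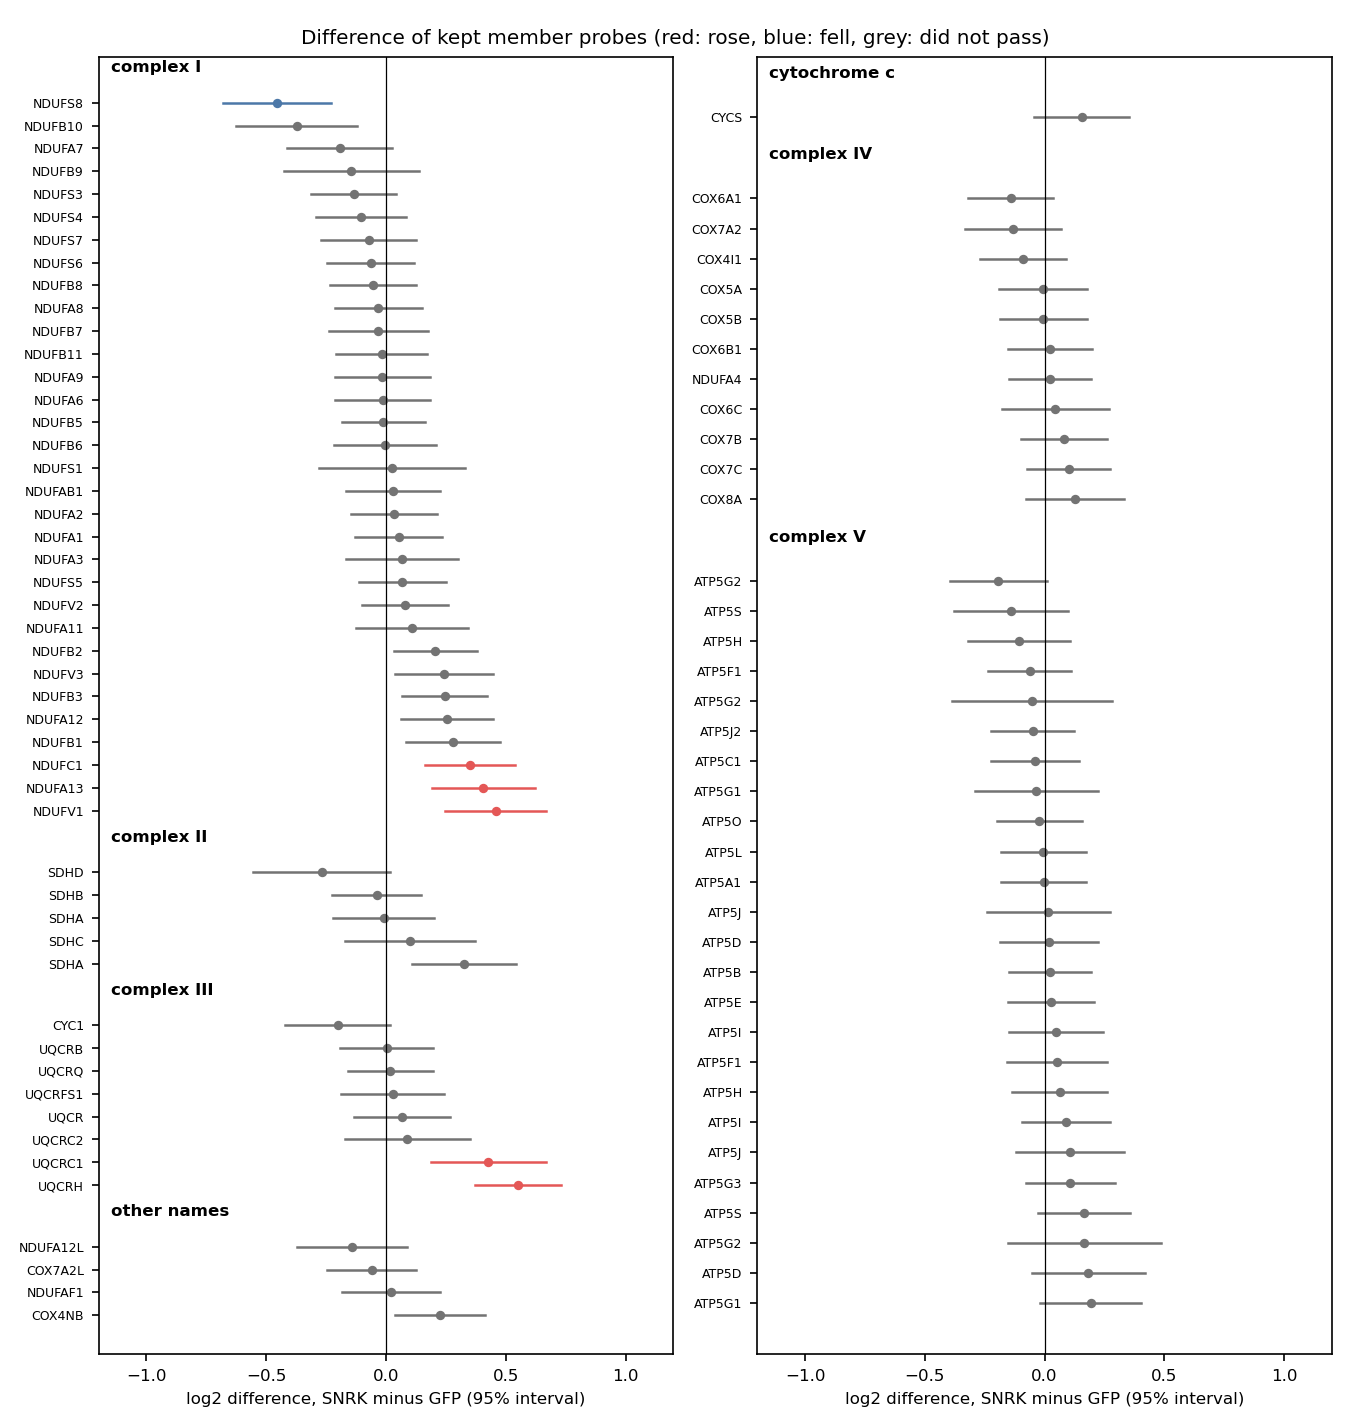
Log2 difference, SNRK minus GFP, with its 95% interval from limma for 86 of the kept member probes, 3 arrays per group, grouped by complex. A name that stands more than 1 time has several probes. The 6 coloured probes lie in complexes I and III, and every interval of complexes IV and V includes 0.

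The 5 rises and the fall are shown with promoter sequence for 4 of the 6 genes: NDUFV1 and NDUFS8, which lie on the same chromosome and moved in opposite directions, and NDUFA13 and UQCRH, which hold a match to an ETS core. The 250 bases before the listed transcript start are given on the coding strand, from RefSeq, build GRCh38.p14. The windows are chr11:67606686-67606935 (+) for NDUFV1, chr11:68030431-68030680 (+) for NDUFS8, chr19:19515975-19516224 (+) for NDUFA13 and chr1:46303448-46303697 (+) for UQCRH. Capitals mark the ETS core CCGGAAG on either strand, and the NRF1 core GCATGCGC was in none of the 4.
NDUFV1: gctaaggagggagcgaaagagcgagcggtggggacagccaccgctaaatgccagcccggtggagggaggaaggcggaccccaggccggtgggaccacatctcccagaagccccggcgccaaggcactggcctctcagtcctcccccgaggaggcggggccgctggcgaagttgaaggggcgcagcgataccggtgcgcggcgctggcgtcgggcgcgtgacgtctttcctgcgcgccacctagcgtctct
NDUFS8: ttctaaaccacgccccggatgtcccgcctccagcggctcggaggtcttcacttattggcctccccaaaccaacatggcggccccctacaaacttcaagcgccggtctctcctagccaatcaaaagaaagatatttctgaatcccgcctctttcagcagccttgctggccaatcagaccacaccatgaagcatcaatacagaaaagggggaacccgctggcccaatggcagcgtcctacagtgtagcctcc
NDUFA13: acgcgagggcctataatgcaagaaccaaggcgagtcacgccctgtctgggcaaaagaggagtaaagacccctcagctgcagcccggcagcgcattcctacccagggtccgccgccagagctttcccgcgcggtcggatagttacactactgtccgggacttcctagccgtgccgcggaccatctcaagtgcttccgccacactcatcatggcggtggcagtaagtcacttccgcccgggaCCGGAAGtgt
UQCRH: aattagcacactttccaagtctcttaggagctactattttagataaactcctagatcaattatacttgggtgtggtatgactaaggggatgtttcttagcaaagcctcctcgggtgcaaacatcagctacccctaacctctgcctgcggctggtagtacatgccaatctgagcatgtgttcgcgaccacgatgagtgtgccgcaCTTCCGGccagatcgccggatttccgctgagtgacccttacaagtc
No capitals appear for NDUFV1 and NDUFS8, since neither core is in those windows.

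The same windows were read for every gene with an entry, taking the window listed first where a gene has several. Of the 73 names of subunits with a kept probe, 59 had one. The NRF1 core GCATGCGC stood in 12 of these 59 (20.3%) and in 2.81% of all 27305 genes. The ETS core CCGGAAG stood in 16 of 59 (27.1%), against 8.82% of all genes. Either core stood in 23 (39.0%), against 11.1%. A CCAAT box, searched as CCAAT on both strands, stood in 17 (28.8%), against 33.0%. The cores thus stood more often in subunit promoters than over all genes, which include non-coding genes and windows of other base composition, and no test was made. A match describes letters and not a bound factor. Of the 6 called genes, NDUFA13 and UQCRH held an ETS core and none held the NRF1 core.

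Complex I had 33 kept probes, 1 for each name. Of these, 3 rose, 1 fell and 29 did not pass. This is 12.1% called, against 12.9% of all kept probes and 7.7% of the bright probes. An unadjusted p under 0.05 in limma was found for 30.3%, against 31.1% and 24.4%. The median difference was -0.01 on the log2 scale, and the differences ran from -0.46 to 0.46. The called members stood at both ends of this range.

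NDUFV1, the flavoprotein that oxidises NADH at the tip of the peripheral arm, gave intensities of 1335, 1263 and 1272 in GFP replicates 1 to 3, against 1593, 1826 and 1674 in the SNRK replicates. Every SNRK array read above every GFP array, and SNRK 2 was the highest. On the normalised log2 scale it rose 1.37-fold, from 10.23 ± 0.07 to 10.68 ± 0.11 (SD, 3 arrays each), a difference of 0.46 ± 0.09 (SE, limma adjusted p = 0.0200). NDUFS8, an iron-sulphur subunit of the same arm that carries electrons towards ubiquinone, gave 5005, 4784 and 4147 in GFP replicates 1 to 3, against 3139, 3085 and 3912 in the SNRK replicates. The groups did not overlap, and SNRK 3 stood nearest to the GFP arrays. NDUFS8 fell 1.37-fold, from 12.15 ± 0.07 to 11.70 ± 0.15, a log2 difference of -0.46 ± 0.10 (SE, limma adjusted p = 0.0251). The pair changed by similar amounts in opposite directions.

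The core subunits described next did not pass. NDUFS3, which lies between the electron-transfer centres and ubiquinone, had a difference of -0.14 (limma adjusted p = 0.269). Its groups did not overlap after normalization, but before it SNRK 3 (3816) read above GFP 3 (3725). NDUFS7, the iron-sulphur subunit next to the ubiquinone site, had -0.07, and NDUFV2, the iron-sulphur partner of NDUFV1, 0.08. NDUFS1, the largest iron-sulphur subunit, had 0.03 with a 95% interval from -0.28 to 0.33.

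Among the 26 accessory subunits measured, which surround the core and are needed for assembly or stability, 2 rose and 0 fell. This is 7.69% called, against 12.9% of all kept probes and 7.7% of the bright probes. NDUFA13, known also as GRIM-19, gave 1758, 1663 and 1688 in GFP replicates 1 to 3, against 2284, 2197 and 2041 in the SNRK replicates. The groups stood apart. NDUFA13 rose 1.33-fold, from 10.65 ± 0.08 to 11.06 ± 0.11 on the log2 scale, a difference of 0.41 ± 0.09 (SE, limma adjusted p = 0.0291). NDUFC1, a small membrane subunit, gave 974, 1057 and 948 in GFP replicates 1 to 3, against 1239, 1146 and 1254 in the SNRK replicates. Again no SNRK array reached down to the GFP values. NDUFC1 rose 1.28-fold, from 9.82 ± 0.06 to 10.17 ± 0.06, a difference of 0.35 ± 0.08 (SE, limma adjusted p = 0.0301).

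NDUFB10, a subunit of the membrane arm, had the largest difference among accessory subunits that did not pass, -0.37 ± 0.11 (SE, limma adjusted p = 0.0601). Its intensities were 4877, 4289.9 and 3714 in GFP replicates 1 to 3, against 3086, 2936 and 3761 in the SNRK replicates. SNRK 3 read above GFP 3 before normalization and below it after, where the groups did not overlap. NDUFB1 (0.28, adjusted p = 0.0664), NDUFB3 (0.25, adjusted p = 0.0723) and NDUFA12 (0.25, adjusted p = 0.0795) were higher in every SNRK array than in every GFP array, and none passed in limma. Over the 26 accessory subunits the normalised groups did not overlap in 8 (30.8%), against 36.4% of all kept probes and 40.0% of the bright probes. The difference of NDUFB1 was 0.17 without background correction and 0.10 on the processed values of the authors. The other 20 accessory subunits had differences between -0.19 and 0.24. NDUFA5 was detected on no array and NDUFC2 on 1 GFP array, and neither was tested.

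Complex II had 5 kept probes for its 4 subunits, and 0 passed in limma (1 at an unadjusted p under 0.05). Over all kept probes 12.9% were called and 31.1% had such an unadjusted p. SDHA, the flavoprotein that oxidises succinate, gave 2159, 2126 and 2119 in GFP replicates 1 to 3, against 2418, 2796 and 2489.5 in the SNRK replicates at its bright probe. The groups did not overlap, and the difference of 0.32 ± 0.09 (SE) narrowly missed the threshold (limma adjusted p = 0.0577). At the dim kept probe SDHA had a difference of -0.01 with a 95% interval from -0.22 to 0.20, and its remaining probe was detected on no array. The intervals of both probes overlap, the dim probe lies near background, and the difference between the probes was not tested. SDHD, a membrane anchor, gave 1074, 1138 and 883 in GFP replicates 1 to 3, against 795, 754 and 987 in the SNRK replicates. SNRK 3 was above GFP 3, and the difference of -0.27 ± 0.12 (SE) did not pass (limma adjusted p = 0.184). The iron-sulphur subunit SDHB had -0.04 and the other anchor, SDHC, 0.10.

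Complex III had 8 kept probes, of which 2 rose and 0 fell, against 6.88% of all kept probes higher and 6.05% lower. UQCRH, the small acidic hinge protein that helps cytochrome c dock, had the largest change of any member. It gave 1143, 1063 and 1017 in GFP replicates 1 to 3, against 1507, 1485 and 1502 in the SNRK replicates. The SNRK arrays lay within a narrow band, far above the highest GFP array. UQCRH rose 1.47-fold, from 9.94 ± 0.06 to 10.49 ± 0.03 on the log2 scale, a difference of 0.55 ± 0.08 (SE, limma adjusted p = 0.00728). The human genome holds a near-identical copy, UQCRHL, and without probe sequences the signal of the copy cannot be told apart.

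UQCRC1, a large core protein on the matrix side, gave 1671, 1660.4 and 1691 in GFP replicates 1 to 3, against 1945, 2379 and 2185 in the SNRK replicates. Before normalization the GFP arrays lay within a few percent of each other. After it GFP 3 (10.74 on the log2 scale) stood above GFP 1 (10.58) and GFP 2 (10.56). All SNRK arrays were above all GFP arrays on both scales. UQCRC1 rose 1.35-fold, from 10.63 ± 0.10 to 11.05 ± 0.16, a difference of 0.43 ± 0.10 (SE, limma adjusted p = 0.0343). Its partner in the core, UQCRC2, had a difference of 0.09 and did not pass (adjusted p = 0.631). The 95% intervals were 0.19 to 0.67 for UQCRC1 and -0.17 to 0.35 for UQCRC2, and the difference between the partners was not tested. CYC1, the cytochrome that passes electrons to cytochrome c, had -0.20 (limma adjusted p = 0.194). Every SNRK array was below every GFP array after normalization, but before it SNRK 3 (4172) read above GFP 3 (3973). UQCRFS1, the Rieske iron-sulphur protein, had 0.03, and the small subunits UQCR (now UQCR11), UQCRB and UQCRQ lay between 0.003 and 0.07. The subunit gene UQCR10, listed in the table as UCRC and so outside the name rule, had 0.13 (adjusted p = 0.312).

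**Figure D2:**
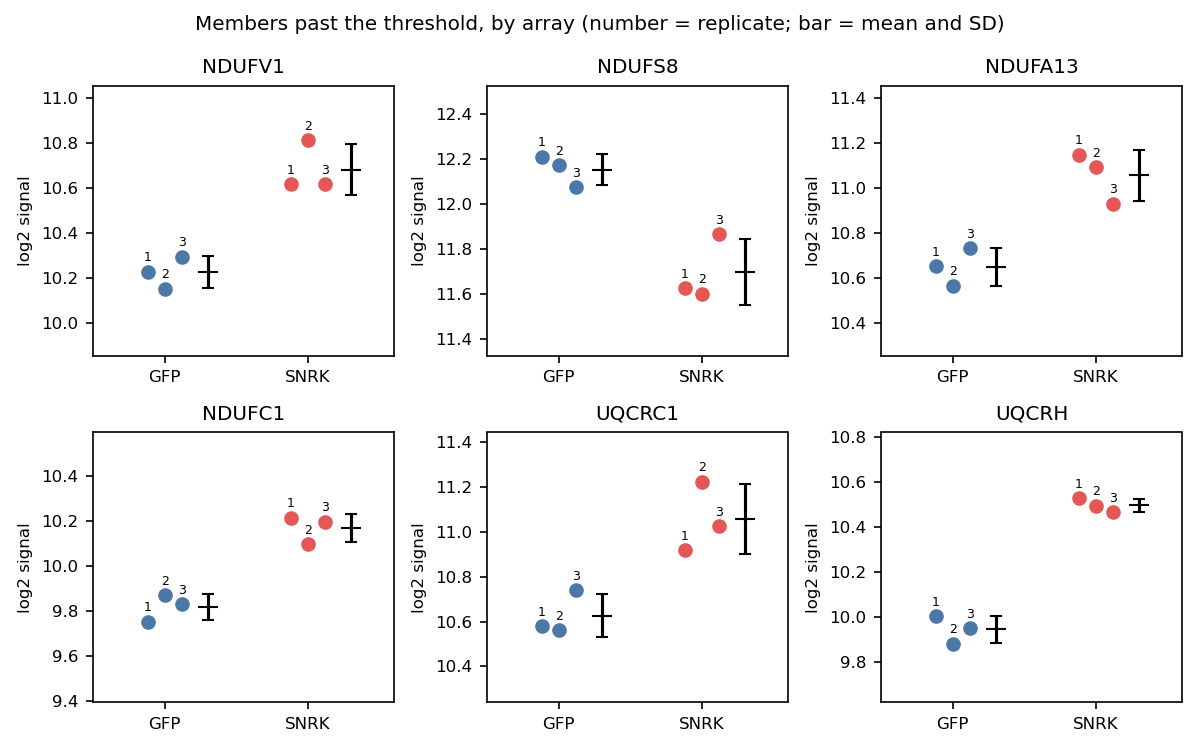
Normalised log2 signal of the 6 members past the threshold on each of the 3 GFP arrays (blue) and 3 SNRK arrays (red), with the replicate number at each point and the mean and SD beside. Every panel spans the same range of 1.2 log2 units, and in each the groups do not overlap, as is so for 36.4% of all kept probes.

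CYCS, the somatic cytochrome c that carries electrons from complex III to complex IV, had a difference of 0.15 ± 0.09 (SE, limma adjusted p = 0.263). All 3 SNRK arrays were above all 3 GFP arrays on the normalised scale. On the processed values of the authors the difference was 0.0873.

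Complex IV had 11 kept probes for its ubiquitous nuclear subunits, and 0 passed in limma, 0 also at an unadjusted p under 0.05. Of all kept probes 12.9% were called and 31.1% had such an unadjusted p, and of the bright probes 7.7% and 24.4%. Differences ran from -0.14 for COX6A1 to 0.13 for COX8A. COX4I1, the largest nuclear subunit, was at 14.07 ± 0.05 in GFP and 13.98 ± 0.04 in SNRK cells (log2 level, SD). COX5A and COX5B each had a difference of -0.01, and their 95% intervals ended at 0.18. NDUFA4, named for complex I and now counted with complex IV, had 0.02. COX7A2, another small subunit, had -0.13 (limma adjusted p = 0.338). All 11 intervals lay within -0.33 to 0.33.

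The isoforms of complex IV that other tissues use were not measurable. COX4I2, COX6B2, COX7A1, COX7B2, COX8C and NDUFA4L2 were detected on no array, and COX6A2, the heart and muscle form of COX6A1, was detected on 2 SNRK arrays. None of the 7 was tested. Of these, 5 had a promoter window, and neither the NRF1 nor the ETS core was in any. Either core stood in 11.1% of all genes, so 5 windows are too few to tell the isoforms apart from these.

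Complex V had 25 kept probes for 16 names, and 0 passed in limma, 0 also at an unadjusted p under 0.05. The shares over all kept probes were 12.9% and 31.1%, and over the bright probes 7.7% and 24.4%. ATP5A1 and ATP5B, which form the catalytic ring, had differences of -0.004 and 0.02, and ATP5C1, the rotating central stalk, -0.04. ATP5D, another subunit of that stalk, had 0.18 and 0.02 at its 2 probes (limma adjusted p = 0.260 and 0.912). ATP5B was at 14.53 ± 0.02 in GFP and 14.55 ± 0.01 in SNRK cells (log2 level, SD), with a 95% interval of the difference from -0.15 to 0.19. The membrane part and side stalk had 19 probes with differences from -0.19 for ATP5G2 to 0.19 for ATP5G1, both genes of the proton-carrying ring. All 25 intervals lay within -0.40 to 0.49.

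**Figure D3:**
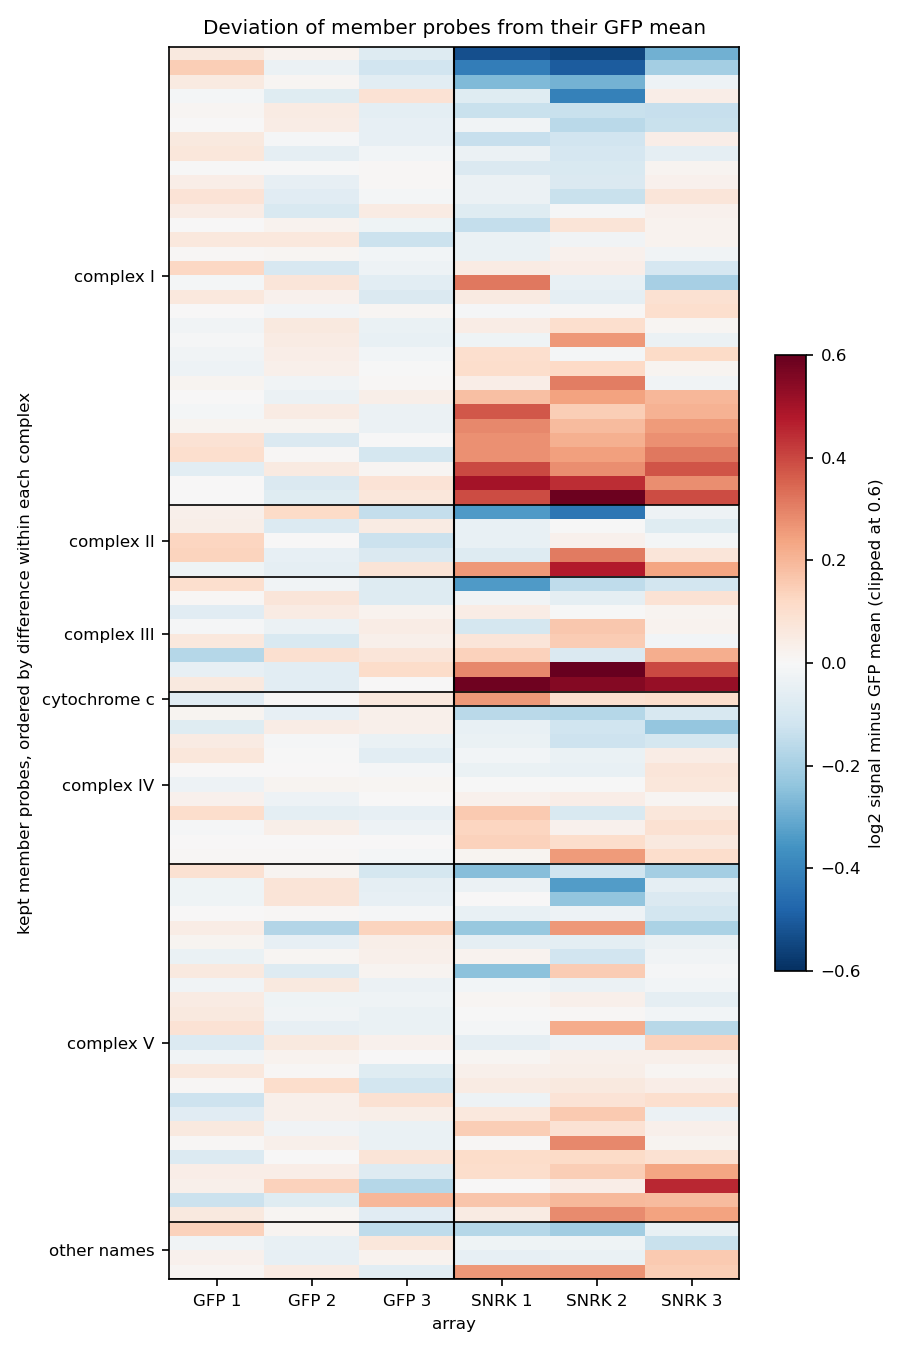
Log2 signal of 86 of the kept member probes minus its GFP mean, for each array, ordered by difference within each complex and clipped at 0.6. Dark cells stand in the SNRK columns at the ends of complexes I and III, while complexes IV and V stay pale on most arrays.

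The 4 names that match by spelling and were kept had 0 calls in limma (1 at an unadjusted p under 0.05). The shares over all kept probes were 12.9% and 31.1%. COX4NB had a difference of 0.23 (limma adjusted p = 0.105), 0.137 on the processed values of the authors, NDUFA12L -0.14, COX7A2L -0.06 and NDUFAF1 0.02. COX6BP1 was detected on no array.

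Several genes were read by more than 1 kept probe: 9 names in all, SDHA and 8 of complex V. In 6 of the 9 the probes had differences of both signs, and no probe among them passed. The bright ATP5G2 probe had -0.19 and its dimmer probes 0.17 and -0.05. ATP5G1 had 0.19 at its bright probe and -0.03 at the other. ATP5S had 0.16 (0.103 under median scaling) and -0.14. For these 3 genes the gap between probes was larger than any difference from GFP in complex V, and for the other 5 genes of complex V it was smaller.

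Read as whole complexes, the members moved little on any array. The median deviation from the GFP mean over the 33 complex I probes was -0.02, -0.01 and 0.02 on SNRK 1 to 3. For the 8 complex III probes it was 0.06, 0.07 and 0.05, and on GFP 1 to 3 it was -0.0002, -0.03 and 0.03. For the 25 complex V probes it was 0.005, 0.04 and -0.01 on SNRK 1 to 3. For the 11 complex IV probes it was -0.003, -0.04 and 0.06 on the same arrays. The 5 complex II probes had -0.05, 0.03 and -0.01 on SNRK 1 to 3, and 0.04, -0.05 and -0.09 on GFP 1 to 3. The complex III median was above the GFP arrays on all 3 SNRK arrays. Of the 87 kept member probes, 77 (88.5%) had a 95% interval within 0.5 of 0 on the log2 scale. The share was 83.2% for the bright probes, at or above the members' lower quartile, and 65.3% for all kept probes. An unadjusted p under 0.05 was found for 14 (16.1%), against 24.4% and 31.1%. The groups did not overlap in 24 (27.6%), against 40.0% and 36.4%.

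The call of UQCRH held with each array left out in turn (limma adjusted p from 0.0106 to 0.0472) and under all 10 other settings. The calls of the other 5 were lost without GFP 1, without GFP 2 or without SNRK 1, with adjusted p up to 0.128 and with log2 differences that kept their sign. Without SNRK 2, NDUFA13, UQCRC1 and NDUFS8 also lost theirs, and without GFP 3, NDUFC1. NDUFC1 also lost its call under median scaling (adjusted p = 0.0811). With the replicate number as a block all 5 lost their calls, and with no detection filter all of them but NDUFV1. The counts over all kept probes fell too, to 2.27% called without GFP 1, 1.99% without GFP 2 and 2.73% without SNRK 1. Without SNRK 3, NDUFB10, SDHA and SDHD passed as well.

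**Figure D4:**
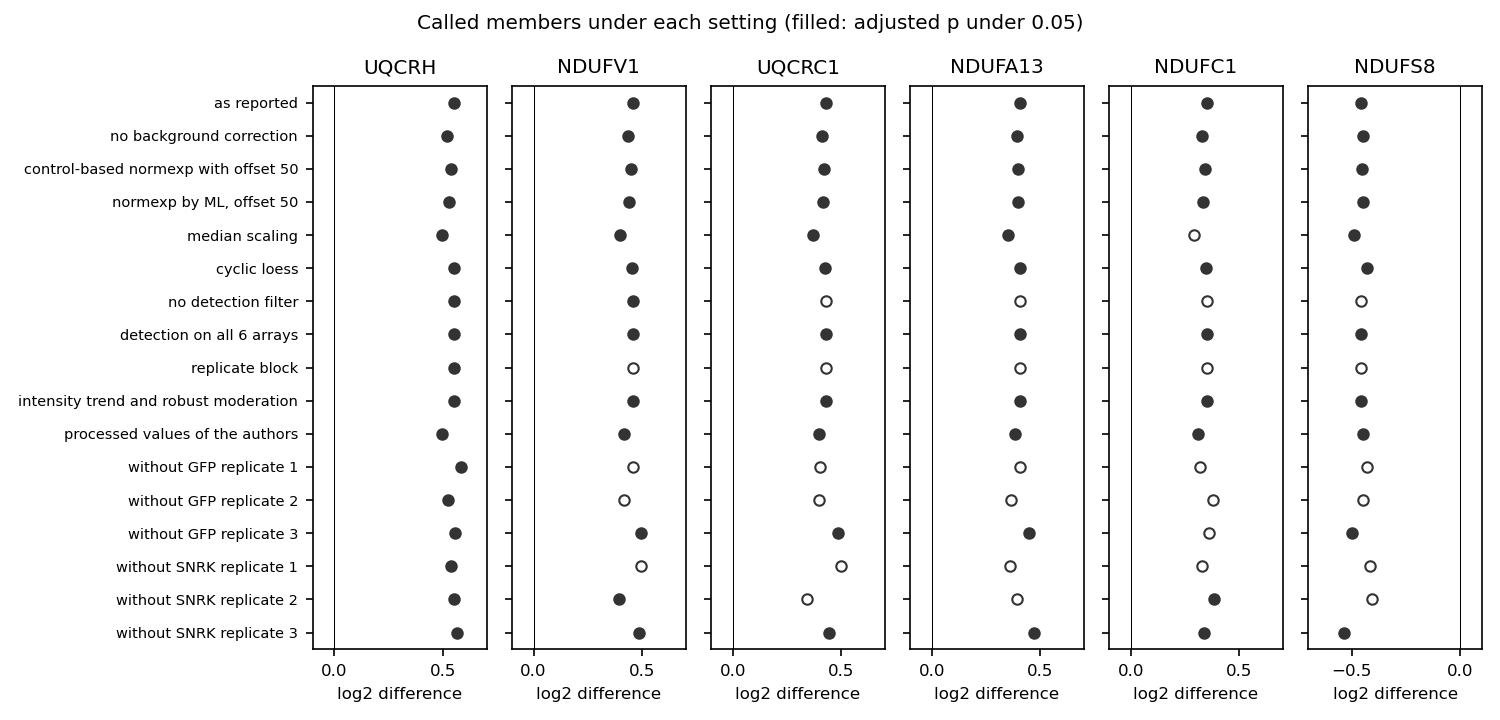
Log2 difference, SNRK minus GFP, of the 6 called members under the reported setting and 16 alternatives, filled where the limma adjusted p is under 0.05. The points of each gene keep to one side of 0, and those of UQCRH are filled in all 17 cases.

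Near the called members, the gene that starts head to head with UQCRH within 1000 bases is LRRC41, an adaptor of a ubiquitin ligase. LRRC41 gave 1574, 1402 and 1021 in GFP replicates 1 to 3, against 696, 668 and 892 in the SNRK replicates. The groups did not overlap, and the level moved against that of UQCRH. LRRC41 fell 1.80-fold, from 10.25 ± 0.27 to 9.40 ± 0.23, a difference of -0.85 ± 0.16 (SE, limma adjusted p = 0.0169). The call was lost without GFP 1, GFP 2 or SNRK 1 (adjusted p = 0.0719, 0.0745 and 0.0706), with no detection filter (0.0561) and with the replicate number as a block (0.0501). TSSK6, head to head with NDUFA13, was detected on no array. The neighbours were looked up after the member values were known.

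Genes that work with the complexes were read from lists outside the name rule. Of 10 assembly factors with a kept probe, 0 rose and 1 fell, against 6.05% of all kept probes lower. The median difference over the 10 was -0.17 on the log2 scale, against 0.004 over all kept probes. The list was not tested as a set. BCS1L, which inserts the Rieske protein into complex III, fell by 0.36 on the log2 scale (limma adjusted p = 0.0296). It gave 933, 862 and 804 in GFP replicates 1 to 3, against 657, 659.98 and 704 in the SNRK replicates. Its call was lost without GFP 1, GFP 2, SNRK 1 or SNRK 2 (adjusted p up to 0.120). The call was also lost with no detection filter and with the replicate number as a block. UQCRFS1, the protein it inserts, had no call, as given above. Of 3 small ATP synthase and supercomplex proteins measured, ATPIF1, HIGD1A and HIGD2A, 0 passed in limma (0 of their 5 probes also at an unadjusted p under 0.05). The shares over all kept probes were 12.9% and 31.1%.

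The citric acid cycle feeds complexes I and II. Of 13 of its genes that were measured, 2 rose and 0 fell, which is 2 of their 15 kept probes (13.3%), close to the 12.9% of all kept probes. IDH2, the NADP-dependent isocitrate dehydrogenase of mitochondria, gave 339, 329.8 and 335 in GFP replicates 1 to 3, against 454, 468 and 455 in the SNRK replicates. The groups stood far apart. IDH2 rose 1.49-fold (difference 0.57 ± 0.08 SE, limma adjusted p = 0.00634), and its call held with each array left out (adjusted p up to 0.0437). On the processed values of the authors its difference was smaller, 0.37, and still passed. OGDH, a subunit of the oxoglutarate dehydrogenase complex, rose by 0.50 (limma adjusted p = 0.0447). Its call was lost with each single array left out except SNRK 3 (adjusted p up to 0.152). On the processed values OGDH had 0.19 and did not pass, nor did it with no detection filter or with the replicate number as a block. CS, the citrate synthase, had -0.24 at its bright probe and 0.38 at a dim one that was detected on only 1 GFP array, and neither passed. The list's median difference was -0.02.

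Of 13 measured regulators of respiratory chain genes, 2 rose and 0 fell (15.4%), close to the 12.9% of all kept probes called. ESRRA, an orphan nuclear receptor, rose by 0.46 and PPARGC1B, its coactivator, by 0.45 (limma adjusted p = 0.0261 and 0.0286). Both calls were lost without GFP 1, GFP 2 or SNRK 1, and that of PPARGC1B also without SNRK 2, with adjusted p up to 0.108 for ESRRA and 0.110 for PPARGC1B. On the processed values of the authors their differences were 0.19 and 0.15, and both still passed. Both calls were also lost with no detection filter and with the replicate number as a block. GABPA, the DNA-binding subunit of GABP, had 0.17, TFAM, the packaging factor of mitochondrial DNA, -0.05, and PPARGC1A -0.08, and none of these passed. NRF1 itself was detected on no array at its probe. These regulators and members are values of the same 6 arrays, and their relation was not tested.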

How the data were processed

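Total RNA of 6 HEK293 samples was labelled and read on Illumina bead arrays. For each probe and array the authors deposited a linear intensity, not normalised between arrays per the file headers and its quantiles, and a detection p-value. A second deposited table holds intensity values that the authors had processed: quartiles agree between arrays (median 170 on each), so they were normalised, on a linear scale. The submitters' processing notes name lumi, with no version or steps.

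Background was corrected with neqc of limma 3.58.1 in R 4.3.3 (negative controls inferred from detection p-values, offset 16), followed by quantile normalization and log2. Differences were tested in limma with the group as the only term, two-sided, with Benjamini-Hochberg adjustment over 14964 kept probes and a threshold of 0.05. The fit was tested on simulated data. No gene list was tested as a set. The number of arrays limits the precision.

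The members, lists and rules were chosen with earlier results of these data known. Named are every called member, the 3 next by p in each complex, core subunits, tissue isoforms, members not detected, and called list genes. Further members, among them NDUFA12 and NDUFA4, were named after their values were seen. Names are those of the table, and 86 of 87 matched a current RefSeq symbol. Probe sequences were not used. The values of some genes that this rule or these lists name are not reported here. Arrays of the same replicate number did not deviate together (r = -0.06, -0.13 and -0.30 over kept probes), so no block was used. Alternatives were other background models, normalizations, filters and moderation, the processed values, the block and each array left out.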

Additional observations from a re-analysis of the deposited data

How the results depend on the processing

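As reported, 5 member probes were higher and 1 lower. These counts were 9 and 2 without background correction, 8 and 2 with the control-based model at offset 50, 8 and 2 with a maximum likelihood background model at offset 50 (chosen after seeing the data), 9 and 3 with an intensity trend and robust moderation, and 10 and 2 on the processed values of the authors. Median scaling gave 4 and 1, without NDUFC1. With no detection filter, which tests 48701 probes, they were 2 and 0. With the replicate number as a block they were 1 and 0, the 1 being UQCRH, while the count over all kept probes fell from 1935 to 731. The labels pair the arrays by number only. With 1 array left out, 1 to 6 were higher and 0 to 3 lower. The members added under other background models, moderation or processed values were NDUFA12, NDUFB10, NDUFB3 and SDHA, with NDUFB2, ATP5G2 and COX7C under some. The share called over all kept probes rose too, to 17.4% without background correction, 18.2% with trend and robust moderation and 14.9% on the processed values. Median differences of complexes stayed near 0. Median scaling gave -0.0453 for complex I and 0.0166 for complex III, and cyclic loess gave 0.0688 for complex IV and 0.0575 for complex V. With 1 array left out they ran from -0.0156 to 0.0208 for complex I, from -0.0286 to 0.0554 for complex II, and from 0.0147 to 0.0687 for complex III. The cause of these shifts was not tested. Of 608 values of 38 named probes under 16 alternatives, 29 lost a call, 19 gained one and 560 did neither. Among probes without a call some differences near 0 changed sign, such as that of ATP5A1, -0.0039 as reported and 0.0671 under cyclic loess. No called value changed sign.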
